A study of Drosophila melanogaster with 3 samples.

Results

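Coding exon regions were those regions of the combined pb-GFP binding list whose summit, the base of highest signal, lay in a protein-coding exon sequence (CDS) and more than 1000 bp from every protein-coding transcription start site. They numbered 4503 of the 30000 regions of the list, or 15.0% (exact 95% interval 14.6 to 15.4%). The choice used the position of the summit and the gene annotation, and no measured level. The other 25497 regions fell into promoters within 1000 bp of a start site (11893), introns (8330), intergenic sequence (4904) and untranslated exon sequence (370).

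The gene proboscipedia (pb) encodes a Hox protein, a homeodomain transcription factor with a part in forming the mouthparts. Hox proteins bind short A and T rich sequences, often together with the cofactors Exd and Hth, and most of their known enhancers lie in introns and between genes. Coding exons carry the protein code and are richer in G and C than introns in Drosophila. In ChIP-seq, DNA bound by a tagged protein is pulled down and sequenced, and a ranked list made for a reproducibility test keeps weak regions as well as strong ones on purpose.

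The series held 3 biological replicates of 1 group, whole Drosophila melanogaster embryos of mixed sex aged 0 to 24 h from a transgenic strain, pb-GFP, that stably makes pb with GFP at its C-terminus. Chromatin was sonicated to 200 to 800 bp and immunoprecipitated with an antibody against GFP. Each replicate had its own list of 30000 regions, called on that replicate and 1 control, the combined list was called on all 3 replicates together, and a thresholded list of 2740 regions was taken from it with the irreproducible discovery rate. No group without the fusion protein and no second genotype was used here, so every comparison is between classes of region or between replicates of the same strain. Whole embryos mix all tissues and germ layers, and binding lists hold no expression values against which a tissue could be checked. The strain carries an added copy of pb, and reads from that copy and from the pb gene itself cannot be told apart. The labels name separate biological replicates and not what was separate, so spreads between replicates may be in part technical.

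Sequences at the summits of 9 coding exon regions are given first, each 101 bases long, on the plus strand of the Release 6 genome (dm6). The first 7 belong to regions of the thresholded list and show the range of base composition there, which ran from A and T rich to G and C rich. The last 3, hth among them, belong to Hox and Hox cofactor genes, the known partners and relatives of pb. Capitals mark a match, on either strand, to 1 of the motifs searched: the homeodomain core TAATTA, the Exd with Hox shape TGATNNAT and its strict form TGATTTAT, the GAGA factor repeat GAGAGAG, the glutamine codon repeat CAGCAGCAG, the dinucleotide repeat CACACAC, the DREF type TATCGATA, the Zelda type CAGGTAG, the NF-Y box CCAAT, the E-box CACGTG and the CTCF type AGGNGGCGC. A strict match is also a match of the wider Exd with Hox shape, and the other motifs do not contain each other.
Pde1c, chr2L:11816528-11816628: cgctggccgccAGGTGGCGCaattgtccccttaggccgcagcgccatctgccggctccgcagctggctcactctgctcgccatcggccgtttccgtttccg
l(3)mbn, chr3L:6124768-6124868: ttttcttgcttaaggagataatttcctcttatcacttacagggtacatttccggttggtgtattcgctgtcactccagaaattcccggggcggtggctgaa
klar, chr3L:506184-506284: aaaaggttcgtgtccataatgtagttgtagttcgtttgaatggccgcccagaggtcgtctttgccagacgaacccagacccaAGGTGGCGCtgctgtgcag
Ubr1, chrX:16967599-16967699: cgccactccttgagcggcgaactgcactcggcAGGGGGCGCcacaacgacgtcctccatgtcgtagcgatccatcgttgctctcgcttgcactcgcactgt
CG5895, chr3L:16037101-16037201: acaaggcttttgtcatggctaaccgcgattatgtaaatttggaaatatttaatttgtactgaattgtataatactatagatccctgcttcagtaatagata
bif, chrX:11681785-11681885: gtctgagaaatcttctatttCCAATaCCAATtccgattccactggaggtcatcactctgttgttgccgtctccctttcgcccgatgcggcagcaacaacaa
hth, chr3R:10605230-10605330: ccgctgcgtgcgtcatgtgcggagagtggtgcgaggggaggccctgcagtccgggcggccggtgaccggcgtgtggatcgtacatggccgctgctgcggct
lab, chr3R:6677453-6677553: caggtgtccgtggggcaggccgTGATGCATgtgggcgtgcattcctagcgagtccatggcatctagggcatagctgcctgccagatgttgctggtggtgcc
Antp, chr3R:6909599-6909699: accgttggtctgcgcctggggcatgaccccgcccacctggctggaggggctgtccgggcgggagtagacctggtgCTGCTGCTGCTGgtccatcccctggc

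Coding exon regions were weak members of the combined list. Only 13 of the 4503, or 0.289%, were among the 2740 thresholded regions, while 9.13% of all regions of the combined list were. By rank of signal the strongest stood at 35 and the median at 18745 of 30000. They made up 0.6% of ranks 1 to 500, 0.446% of ranks 501 to 2740 and 3.36% of ranks 2741 to 5000. Further down, their share was 11.5% of ranks 5001 to 10000, 18.4% of ranks 10001 to 20000 and 20.0% of ranks 20001 to 30000. The thresholded list was ranks 1 to 2740 of the combined list by signal. In it as a whole they held 0.474% (13 regions, exact 95% interval 0.253 to 0.810%), so nearly all of the class sat below the reproducibility threshold. Only 15 of them reached the highest -log10 q of the combined list, a ceiling shared by 2876 regions.

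**Figure D1:**
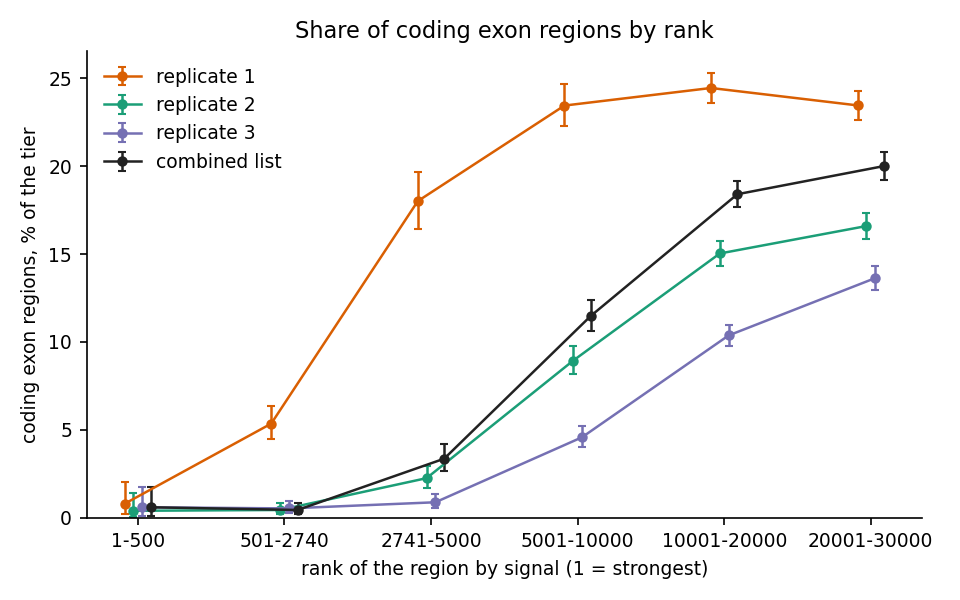
Share of coding exon regions (vertical axis, % of each tier, with exact 95% intervals for counting error) by rank of signal (horizontal axis) in the 3 replicate lists and the combined list. Every list starts under 1% in ranks 1 to 500, and the line of replicate 1 leaves the others already in ranks 501 to 2740, at 5.36%.

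The same class was found in each replicate, in unequal number. Replicate 1 had 6492 coding exon regions, replicate 2 had 3672 and replicate 3 had 2664, which is 21.6%, 12.2% and 8.88% of each list and a mean of 14.3% ± 6.61 (SD, n = 3). Replicate 1 stood apart from the other replicates. Among its 2740 strongest regions 124 were in coding exons (4.53%), against 12 (0.438%) in replicate 2 and 15 (0.547%) in replicate 3. The mean share among the strongest regions was therefore 1.84% ± 2.33 (SD, n = 3) over all replicates and 0.493% without replicate 1. Of the 124 strong regions of replicate 1, 117 were in the combined list, at a median rank of 6042, and 10 were thresholded. All 12 of replicate 2 and 13 of the 15 of replicate 3 were in the combined list, at median ranks of 1308 and 1311, and 11 and 10 of them were thresholded.

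Set against the length of sequence that could hold such a region, coding exons were common in the whole list and scarce at its top. Coding bases more than 1000 bp from a start site, called eligible coding bases, covered 14.6 Mb, or 13.7% of all bases outside promoters. Coding exon regions made up 24.9% of the combined regions outside promoters and 1.29% of the thresholded ones. Per Mb, the combined list held 309 regions in coding exons, 171 in introns and 129 in intergenic sequence. The thresholded list held 0.891 per Mb in coding exons, 13.7 in introns and 7.95 in intergenic sequence. In replicates 1, 2 and 3 the density in coding exons was 445, 252 and 183 per Mb, against 152, 186 and 192 per Mb in introns. Coding exons were thus denser than introns in replicates 1 and 2 and slightly sparser in replicate 3.

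The strongest coding exon region lay in otp, the homeobox gene orthopedia, in exon 8 of 8, on arm 2R at 20884430 to 20884746. It ranked 24, 36 and 65 in replicates 1, 2 and 3, a mean rank of 41.7 ± 21.1 (SD, n = 3), and 35 in the combined list. The region in Pde1c, which encodes a cyclic nucleotide phosphodiesterase, ranked 39, 71 and 60 in the replicates and 50 in the combined list, and its summit lay 17 bp from the edge of exon 9 of 9. These were the only coding exon regions within the first 100 ranks of every replicate. The third, in l(3)mbn, a gene named for a blood cell tumour mutant, ranked 352, 1019 and 329, with its summit 11 bp from the edge of a 63 bp coding exon. It was also 580 bp from the start of a gene that codes for no protein, so a wider definition of a promoter would take it out of the class.

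The region in klar, whose protein links nuclei and lipid droplets to microtubule motors, ranked 247, 1151 and 1641 in replicates 1, 2 and 3. In Ubr1, a ubiquitin ligase gene, the region ranked 1228, 1411 and 1560, and with its summit 1030 bp from a start site it was close to the limit that the definition sets. The region in CG5895 ranked 2253, 1156 and 1234, and its window was the most A and T rich of the 13 (GC 34.3%). All these lay within the 2740 strongest regions of every replicate. The same held for nahoda, at ranks 1835, 2471 and 2393.

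The remaining thresholded regions had at least 1 replicate in which they ranked below 2740. In bif, whose product binds actin and protein phosphatase, there were 2 regions in the same coding exon 3, of 2537 bp. They ranked 1758, 1852 and 4618, and 1613, 6394 and 1726. The region in hth, which encodes the Hox cofactor Homothorax, ranked 3036, 7123 and 2161 and was the most G and C rich of the 13 (GC 69.7%). InR, the insulin receptor gene, had ranks of 4948, 2211 and 6179. HisRS, the histidyl-tRNA synthetase gene, had ranks of 2988, 1799 and 5652 at a base that is not coding in every transcript. The widest spread was that of scrib, the gene of a junctional polarity scaffold, at 1146, 14631 and 4842, a mean rank of 6873 ± 6968 (SD, n = 3). In scrib the thresholded rank thus went with a high rank in replicate 1.

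**Figure D2:**
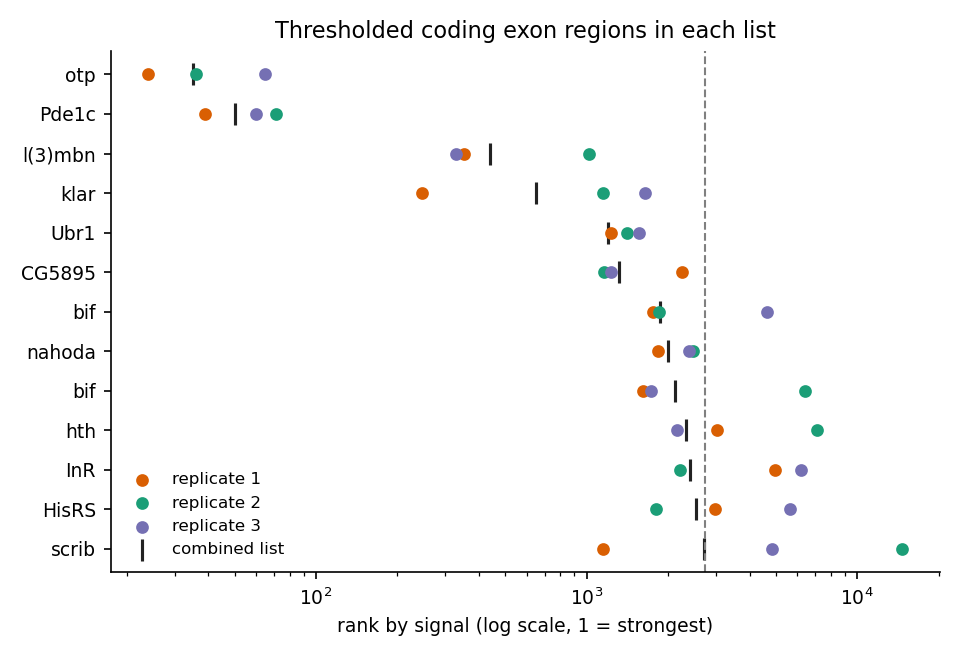
Rank by signal (horizontal axis, log scale, 1 the strongest) of the 13 thresholded coding exon regions, with 1 row for each region, a point for each replicate and a bar for the combined list, and the dashed line at rank 2740. Rows for otp and Pde1c lie below rank 100 in every list, and 6 of the lower rows have points on both sides of the dashed line.

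All 13 thresholded coding exon regions had a summit within 100 bp in all 3 replicate lists. Over all classes the share was 98.8% in ranks 1 to 500 and 86.0% in ranks 501 to 2740. The thresholded regions were the 2740 strongest of the combined list by signal, and regions that strong were mostly found in all 3 lists. Such a count was thus close to given. It does not vouch for each region, since 27 regions of ranks 501 to 2740 were found in 1 list only. Over the whole coding exon class a summit in all 3 lists was rare. Of the 4503 regions, 312 (6.93%, exact 95% interval 6.20 to 7.71%) were found in all 3 replicate lists, against 17.8% of the intron regions and 19.2% of all regions of the combined list. A further 1450 (32.2%) were found in 2 lists, 2229 (49.5%) in 1 list and 512 (11.4%) in none. The share was lower at weaker ranks. In ranks 2741 to 5000 the share found in all 3 lists was 64.5% of coding exon and 58.8% of intron regions. The pair of shares was 27.2% and 29.8% in ranks 5001 to 10000, 5.0% and 5.15% in ranks 10001 to 20000, and 0.1% and 0.233% in ranks 20001 to 30000. Within each of these bins the intervals of the classes overlapped.

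Replicate 1 held the largest share of the coding exon regions and the smallest share of the intron regions. A summit within 100 bp was present for 63.8% of coding exon regions in replicate 1, against 48.5% of intron regions and 55.3% of all regions. In replicate 2 the share was 40.8% of coding exon regions, against 56.8% of intron regions and 56.1% of all regions. In replicate 3 it was 30.1% of coding exon regions, against 54.6% of intron regions and 52.0% of all regions. Replicate 2 was above replicate 3 in both classes, so only the place of replicate 1 differed. The difference from introns was 15.3, -15.9 and -24.5 percentage points, a mean of -8.37 ± 20.9 (SD, n = 3), smaller than the spread between replicates, with p = 0.5 in a 2-sided exact sign-flip permutation test. The difference from intergenic regions averaged -6.55 ± 16.6 points (SD, n = 3, exact permutation p = 0.5). With 3 replicates this test cannot give a p under 0.25.

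**Figure D3:**
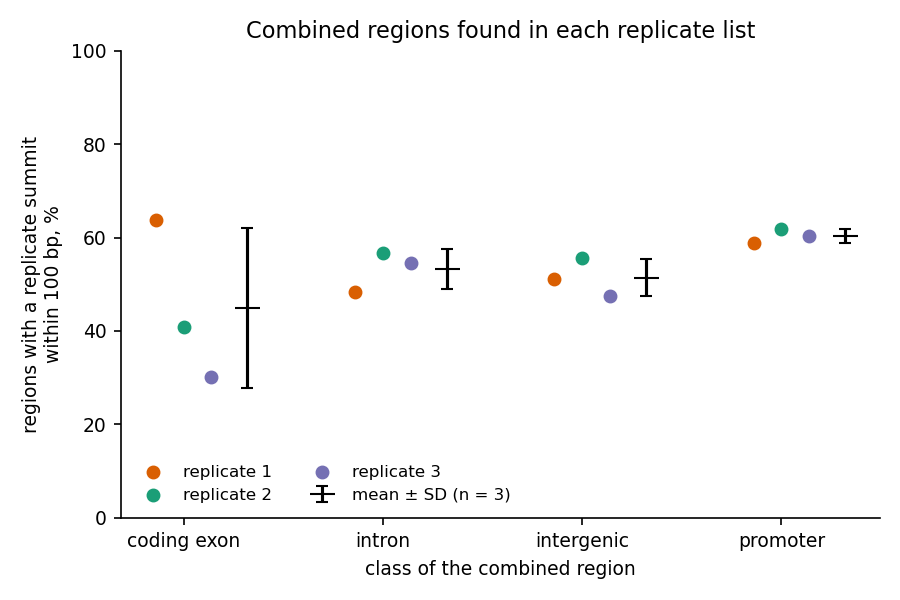
Share of combined regions with a summit within 100 bp in each replicate list (vertical axis, %), by class of region, with a point for each replicate and the mean ± SD over the 3 replicates. For coding exon regions the points run from 30.1% in replicate 3 to 63.8% in replicate 1, while intron points lie between 48.5% and 56.8%.

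Of the regions found in a single replicate list, 1326 were found in replicate 1 alone, 555 in replicate 2 alone and 348 in replicate 3 alone. The combined list was called on the same reads as the replicate lists, so these shares describe how the lists relate and are not independent tests. From 50 to 65% GC the replicates stood in the same order in both classes. Among regions of 55 to 60% GC, 64.7%, 38.5% and 28.8% of 1563 coding exon regions were found in replicates 1, 2 and 3, against 62.6%, 49.0% and 37.2% of 465 intron regions. From 45 to 50% GC the orders differed: 50.2%, 38.5% and 24.7% of 299 coding exon regions were found in replicates 1, 2 and 3, against 48.2%, 50.5% and 47.9% of 1982 intron regions. Below 40% GC the shares were 50%, 50% and 41.7% of 12 coding exon regions, against 45.3%, 68.8% and 68.7% of 2629 intron regions.

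Signal levels of coding exon regions found in a pair of replicates were weakly related. Spearman's rank correlation between the signals was 0.194 for replicates 1 and 2 (1067 regions), 0.146 for replicates 1 and 3 (790 regions) and 0.138 for replicates 2 and 3 (529 regions). Among intron regions the same measure was 0.600, 0.562 and 0.578 over 2302, 2165 and 2739 regions. These values are descriptions: the points share libraries, base composition and 1 control, and nearly all coding exon regions lie in the lower ranks, which narrows their range. When each replicate's own coding exon regions were compared, 18.0% of those of replicate 1 had a summit within 100 bp in replicate 2 and 13.0% in replicate 3. The share was 31.9% and 15.2% for those of replicate 2 in replicates 1 and 3, and 31.3% and 21.1% for those of replicate 3 in replicates 1 and 2. Introns gave between 24.2% and 33.3% in these 6 comparisons. The 124 strong regions of replicate 1 were found in 51.6% in replicate 2, at a median rank of 9479 there, and in 36.3% in replicate 3, at a median rank of 12194. Of the 597 intron regions among the strongest of replicate 1, 88.8% were found in replicate 2 and 85.1% in replicate 3.

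The strongest coding exon regions of the single replicates shared otp, Pde1c and l(3)mbn in the first 5 of each. Replicate 1 added hid, a gene whose product triggers cell death, at rank 908. That region ranked 10326 in replicate 2, was not found in replicate 3 and ranked 3764 in the combined list. Replicate 2 added CG10357 at rank 1120, where replicate 3 had rank 1592 and the combined summit fell in untranslated sequence. A region in Hsc70-2, a heat shock cognate gene, ranked 1119 in replicate 1 and 3801 in the combined list, and had no summit within 100 bp in replicates 2 and 3.

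Coding exon regions were rich in G and C. In the 201 bp around the summit the median GC content was 58.2% in coding exon regions of the combined list, against 44.3% in introns, 46.3% in intergenic regions and 48.3% in promoters. Windows centred on all eligible coding bases had a median of 52.2%, so the chosen places were richer in G and C than coding sequence at large. This was not particular to coding exons. Windows on all intron and intergenic bases outside promoters had medians of 40.3% and 41.3%, also below those of their regions. The median of coding exon regions was 57.2%, 57.2% and 56.7% in replicates 1, 2 and 3, against 46.8%, 43.3% and 41.8% in their introns. The difference averaged 13.1 ± 2.35 percentage points from introns and 11.6 ± 2.35 points from intergenic regions, higher in 3 of 3 replicates (SD, n = 3, 2-sided exact permutation p = 0.25 for each, the smallest that 3 replicates allow). The classes differ in GC content over all their bases, before any region is chosen. The direction of these differences was thus largely set by the definition of the classes. Coding exon regions found in all 3 replicate lists had a median GC of 60.7%, and those found in none 56.7%.

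In coding exons the density of regions was higher in every higher bin of GC content, and the range was wider than in introns. In the combined list coding exons held 12.5 regions per Mb of eligible bases below 40% GC, 43.7 from 40 to 45%, 104 from 45 to 50% and 211 from 50 to 55%. It was 457 per Mb from 55 to 60%, 900 per Mb from 60 to 65% and 1394 per Mb above. Introns held 112, 160, 227 and 331 regions per Mb in the first 4 of these bins, 437 and 639 in the next pair, and 509 above 65%, where there were 4 regions. Intergenic density was 330 per Mb from 55 to 60%, 214 from 60 to 65% and 192 above, the last from 4 regions. In the combined list coding exons were thus sparser than introns below 55% GC and denser above, and replicate 1 gave the same. From 55 to 60% GC coding exons were sparser in replicates 2 and 3 (344 and 241 per Mb, against 371 and 268 in introns). From 60 to 65% they were denser than introns in replicate 2 (651 against 395 per Mb) and sparser in replicate 3 (433 against 479 per Mb). Below 40% GC the coding density was 19.7, 40.5 and 47.8 per Mb in replicates 1, 2 and 3, and above 65% it was 1542, 1021 and 704. The range was widest in replicate 1 and narrowest in replicate 3.

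**Figure D4:**
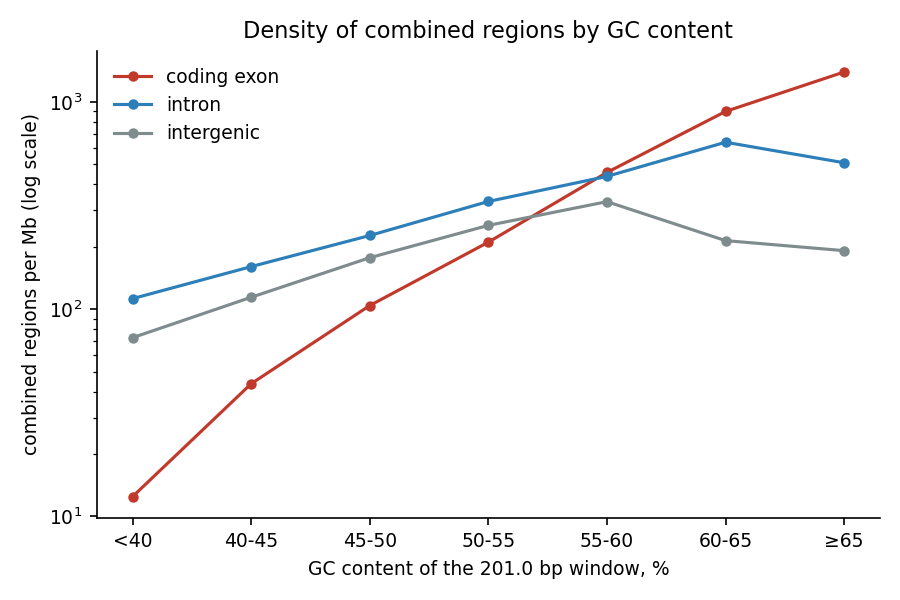
Regions of the combined list per Mb of sequence (vertical axis, log scale) by GC content of the 201 bp window (horizontal axis, %), for coding exons, introns and intergenic sequence. The coding exon line climbs from 12.5 to 1394 per Mb and crosses the intron line near 55% GC, while the intergenic line falls from 330 to 214 and 192 per Mb in the last bins.

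In the thresholded list the 13 coding exon regions had a median GC content of 55.7%, against 37.3% in its intron regions. Thresholded introns were densest below 40% GC, at 19.3 regions per Mb, and held 6.43 per Mb from 50 to 55%. Up to 55% GC this was the opposite order to that of the combined list. Their density was 7.52 per Mb from 55 to 60% (8 regions) and 9.40 from 60 to 65% (1 region). Thresholded coding exons held at most 5 regions in any bin, too few for an order. What in the chromatin, the library preparation or the sequencing goes with GC content was not tested.

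Motifs of homeodomain proteins were rarer at coding exon summits than 1000 bp away. Each motif was sought on both strands in the 201 bp around the summit and in windows of that length centred 1000 bp to either side. Summits are coding by definition and flanks need not be, and the windows were not matched for GC content. For every motif, the difference from flanks thus includes that of coding from other sequence. TAATTA, a core bound by many homeodomains, was present in 0.986%, 1.61% and 1.91% of coding exon regions of replicates 1, 2 and 3, against 9.19%, 9.53% and 9.35% of the flanking windows. The mean difference was -7.85 ± 0.390 percentage points (SD, n = 3, exact permutation p = 0.25, adjusted p = 0.278 over 10 motifs), lower in 3 of 3 replicates, and 8.19% of all combined regions held it. With flanks restricted to those whose centre is also coding, the difference was -1.16 points. TGATNNAT, the shape bound by Exd with a Hox protein, was present in 5.37% of coding exon regions of the combined list, 11.6% of their flanks and 9.58% of all regions. Its mean difference over the replicates was -5.68 ± 0.321 points, and -1.25 points against coding flanks. The stricter TGATTTAT was in 0.155% of coding exon regions and 1.80% of flanks, with a mean difference of -1.42 ± 0.0134 points, and -0.182 points against coding flanks. None of these 3 motifs was present within 100 bp of the summit of any of the 13 thresholded coding exon regions. Their shares over all coding exon regions of the combined list were 1.11%, 5.37% and 0.155%, so their absence from 13 windows says little.

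Repeats of the trinucleotide CAG, a glutamine codon, were more frequent at coding exon summits than around them. CAGCAGCAG was in 9.77% of coding exon regions of the combined list, 3.80% of their flanks and 3.69% of all regions. The difference was 5.01, 6.06 and 4.45 percentage points in replicates 1, 2 and 3, a mean of 5.17 ± 0.817 (SD, n = 3, exact permutation p = 0.25), and 2.29 points with coding flanks. CACGTG, an E-box, exceeded its flanks by 1.05 ± 0.288 points and coding flanks by 0.766 points. CACACAC differed from its flanks by -3.08 ± 0.209 points and from coding flanks by -0.172 points. GAGAGAG, bound by GAGA factor, TATCGATA, bound by DREF, and CAGGTAG, bound by Zelda, differed from their flanks by -0.804, -0.378 and 0.584 points, and each changed sign against coding flanks. CCAAT was in 33.2% of coding exon regions of the combined list and 35.7% of their flanks. In replicates 1, 2 and 3 its difference from flanks was -0.855, 0.313 and -1.97 points. The mean of -0.837 ± 1.14 points (SD, n = 3, exact permutation p = 0.5) was smaller than their spread. Adjusted p was 0.278 for the 9 other motifs, a value no set of 3 replicates could bring below the usual threshold. A match describes letters in a window and not a bound site.

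**Figure D5:**
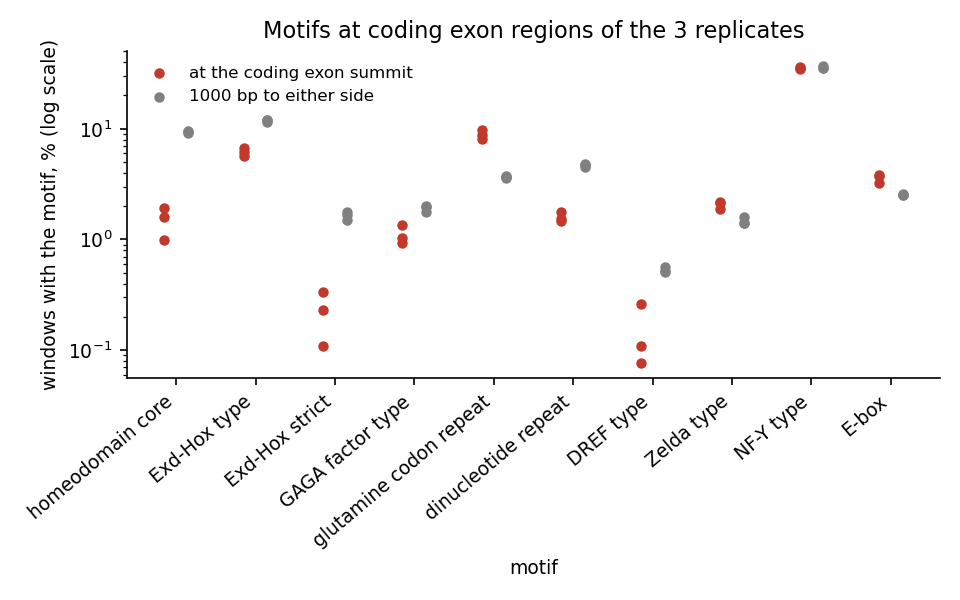
Share of windows that hold each of 10 motifs (vertical axis, %, log scale) at coding exon summits and in windows 1000 bp to either side, with a point for each of the 3 replicates. For the homeodomain core the summit points lie between 0.986% and 1.91% and the flank points between 9.19% and 9.53%, and for the glutamine codon repeat the summit points lie above the flank points.

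A further motif was noticed in the sequences of Pde1c, klar and Ubr1 and sought only after that, so its shares are given without a test. AGGNGGCGC, letters found in the recognition core of the insulator protein CTCF, was present at 3 of the 13 thresholded coding exon regions, those in Pde1c, klar and Ubr1. These are the regions in which it was noticed, so their share cannot be set against others. No other thresholded coding exon region held it. The motif was present at 1.95% of all coding exon regions of the combined list, 0.912% of its intron regions, 1.26% of all its regions and 1.86% of all thresholded regions. Among the strong coding exon regions of single replicates it was present at 6 of 124 in replicate 1, 4 of 12 in replicate 2 and 4 of 15 in replicate 3. These counts overlap, since the same places recur in each list. Pde1c, klar and Ubr1, where the motif was noticed, ranked within the 2740 strongest regions of every replicate. The replicate counts thus cannot be set against others either. Among coding exon regions below the thresholded list the share was 1.89%, and the classes were not matched for GC content.

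Over the whole class, summits lay farther from exon edges than coding sequence at large. The median distance to the nearest edge of the coding block was 234 bp for coding exon regions and 170 bp for all eligible coding bases, although the blocks were of like size, with medians of 842 and 875 bp. Within 100 bp of an edge lay 21.4% of coding exon regions, and 21.3%, 25.2% and 29.4% of those of replicates 1, 2 and 3, against 36.7% of eligible coding bases. For the 13 thresholded regions the median distance was 117 bp in blocks with a median of 303 bp, and 46.2% lay within 100 bp of an edge. Those blocks were shorter than the blocks of eligible bases, and 13 regions are few, so no difference from coding sequence at large is drawn from them. The base at the summit was coding in every transcript that spans it for 83.8% of regions and 82.6% of eligible bases. Genes without introns held 2.86% of regions and 2.93% of eligible bases. The median distance to a start site was 2413 bp for coding exon regions and 2673 bp for eligible bases. At the limit of the definition, 309 coding exon regions lay 1001 to 1100 bp from a start site, at a median rank of 19022, while 272 coding summits at 901 to 1000 bp, counted as promoters, had a median rank of 17809. In all, 3630 coding summits of the combined list lay within 1000 bp of a start site, 39 of them thresholded.

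Genes with a coding exon region were many, and long genes had one more often. Of 8155 eligible genes, those with at least 200 eligible coding bases, 2967 (36.4%) held at least 1 coding exon region. There were 2000 genes with 1 region, 624 with 2 and 343 with 3 or more, and a further 31 genes below that length held one. The median eligible coding length was 1811 bp in genes with a region and 901.5 bp in genes without. The share of genes with a region was 13.0% for genes of 200 to 500 bp, 24.6% up to 1000 bp, 39.3% up to 2000 bp, 54.7% up to 4000 bp and 70.1% above. Per kb the order was the reverse, with 0.398 regions per kb in the shortest genes and 0.237 in the longest, and 0.309 over all eligible coding sequence. Among the genes with the most regions were scrib and osa, with 9 each, and klar, pyd and Svil, with 8 each. Osa is a subunit of a chromatin remodelling complex, pyd encodes a junction protein and Svil an actin-binding protein. The best ranked region of osa stood at 2127 in replicate 1 and had no summit within 100 bp in replicates 2 and 3.

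Among patterning genes the density of coding exon regions was above that of all eligible coding sequence. This was not particular to them: it was 1.05 per kb in cytoplasmic ribosomal protein genes and 0.895 per kb in abundant housekeeping genes. Of 8 Hox genes, 4 held one (lab, Antp, Abd-B and pb itself), with 7 regions at 0.648 per kb. Of all eligible genes with 1000 to 2000 bp of eligible coding sequence, 39.3% held one. The best region of lab, the neighbour of pb in the Antennapedia complex, ranked 10639, 7733 and 9269 in replicates 1, 2 and 3, and that of Antp ranked 4564, 7107 and 11618. In pb there were 3 regions, at combined ranks of 9027, 10263 and 17834. The first was found in replicate 2 alone, at rank 5473, the next in replicate 1 alone, at rank 2764, and the last in replicate 2 alone, at rank 16799. Of 7 genes of Hox cofactors and their TALE relatives 4 held one, with 8 regions at 0.763 per kb. The best region of ara, an Iroquois gene, ranked 2183, 17330 and 4703.

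Gap and pair rule genes, which divide the early embryo into segments, held a region in 14 of 18 eligible members, at 1.05 per kb. Segment polarity genes, which pattern each segment, held one in 8 of 13, at 0.644 per kb, and genes of the ecdysone response in 9 of 13, at 0.566 per kb. The pair rule gene hry had its best region at ranks 2665 and 12465 in replicates 1 and 3, with none in replicate 2. Eip74EF, an ecdysone early gene, had its best region at ranks 2587 and 16756 in replicates 1 and 2, with none in replicate 3. Notch pathway genes held one in 9 of 12, at 0.427 per kb, insulator and architecture genes in 6 of 8, at 0.409 per kb, and Polycomb and trithorax group genes in 13 of 23, at 0.375 per kb. Of all eligible genes 36.4% held one. The share was 24.6% for all genes of 500 to 1000 bp, 39.3% up to 2000 bp and 54.7% up to 4000 bp. Median eligible length was 814 bp in gap and pair rule genes, 1547 bp in segment polarity genes and 2216.5 to 3226 bp in the others. The 56.5% of Polycomb and trithorax group genes was close to that of all genes of such length.

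Structural and cell surface genes, many with long coding sequences, gave high counts at a low density. Of all eligible genes 36.4% held a region, and of those with 4000 bp or more of eligible coding sequence 70.1%. Genes of the sarcomere and large cytoskeletal proteins held a region in 16 of 18 eligible members but at 0.171 per kb. Cadherins held one in 10 of 16, at 0.126 per kb, apical matrix and chitin genes in 8 of 14, at 0.159 per kb, and axon guidance genes in 15 of 24, at 0.234 per kb. Basement membrane genes held one in 8 of 12, at 0.318 per kb, close to all coding sequence. Abundant housekeeping genes held one in 6 of 14, at 0.895 per kb, and cytoplasmic ribosomal protein genes in 6 of 17, at 1.05 per kb. The best ribosomal protein region, in RpL3, ranked 2383 in replicate 1 and was not found in the others. Heat shock and chaperone genes held one in 6 of 16, at 0.350 per kb, and cuticle protein genes in 6 of 25, at 0.311 per kb. Tubulins, heat shock genes and ribosomal protein genes have close copies, and how reads that match several copies were placed is not given in the sources used here.

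Mucins, secreted glycoproteins, and the chemoreceptors of taste and smell had the lowest densities of the 20 groups. Mucins held a region in 2 of 11 eligible members, at 0.0231 per kb, and odorant and gustatory receptors in 2 of 65, at 0.0775 per kb. The region in the receptor gene Gr43a was found in no replicate list. Yolk and chorion genes held one in 3 of 7, at 0.617 per kb, but 1 of the 3 was Cp190, which encodes an insulator protein and fell into the group by its symbol. All these counts are to be read beside 36.4% of eligible genes and 0.309 regions per kb, and no group was tested against another. GC content and coding length differ between such groups, and their part in these densities was not tested.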

How the data were processed

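Per the deposited notes and labels, ChIP-seq with anti-GFP was run on 3 biological replicates, and the authors called regions on dm6 alignments of each replicate, and of all 3 together, each with 1 control. No aligner, caller or read depth is named there. The authors deposited a signal value per region, whose normalization is not stated and whose scale differs between lists, so regions were compared by rank of signal within a list. The authors also deposited a -log10 q value per region, which was used only to count regions at its ceiling. All per-sample columns of the dm6 lists used here were mapped to a replicate by the deposited labels, and the older dm3 lists were not used.

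Summits were classed in the order promoter, coding exon, untranslated exon, intron, intergenic with Ensembl release 115 gene models (BDGP 6.54) and the Release 6 genome. Summits within 100 bp counted as shared. GC content and motifs were taken from 201 bp windows of the reference. Shares carry exact (Clopper-Pearson) 95% intervals, which cover counting error only. Differences over replicates were tested with a 2-sided exact sign-flip permutation test, with Benjamini-Hochberg adjustment over the 10 motifs. Classes, matches, motifs and the test were tested on simulated data. Python 3.11.15, numpy 2.4.6, pandas 2.3.3, scipy 1.17.1 and matplotlib 3.10.9 were used.

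Genes were named by rule: those of every thresholded coding exon region, of the 10 strongest in the combined list and the 5 strongest in each replicate, those with most regions, and up to 2 with the best ranked region from each of 20 gene lists; all others were named after their values were seen. Not every gene that the rule names is described, and 1 of those with most regions is not reported here. Of the listed symbols, 6 matched no gene. The regions and lists were chosen with earlier results of these data known.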

Additional observations from a re-analysis of the deposited data

How the results depend on the processing

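The share of the combined list was 21.1% with a promoter window of 500 bp, 8.92% with 2000 bp, 14.5% with the start sites of all genes and 12.6% for bases coding in every transcript. The share of the thresholded list was 0.839% with 500 bp. It was 1.78% of the 5000 strongest and 6.63% of the 10000 strongest combined regions, and 4.19% and 8.26% in the mean of the replicates. Replicate 1 carried these means: its shares were 10.6% and 17.0%, against 1.26% and 5.1% in replicate 2 and 0.7% and 2.64% in replicate 3, and without replicate 1 the means were 0.98% and 3.87%. Eligible coding bases are 10.9% of all bases, so in replicate 1 the class was not scarce at these limits. Leaving out each replicate in turn gave mean shares from 10.6 to 16.9% of the lists and from 0.493 to 2.54% of their strongest regions. The share found in all 3 replicate lists was 7.83% with a promoter window of 500 bp, 2.91% with summits matched within 50 bp and 12.9% within 200 bp. With 1 replicate left out, fewer lists had to match, and it was 11.7 to 23.7%. Overlap between replicates averaged 21.7%, and was 13.2% within 50 bp and 31.7% within 200 bp. Recovery minus that of introns ranged from -20.2 to -0.313 points with 1 replicate left out, and minus that of intergenic regions from -16.1 to -1.09 points. In alternatives added after seeing the data, the difference from introns reversed to 3.01 points within ranks 2741 to 5000 and was -0.883, -0.604 and -1.44 points within the 3 weaker rank bins. Within GC bins of 45 to 50, 50 to 55, 55 to 60 and 60 to 65% it was -11.1, -7.05, -5.61 and -8.18 points. The GC difference ranged from 12.1 to 14.4 points against introns and from 10.7 to 12.9 points against intergenic regions. With coding flanks, GAGAGAG reversed to 0.100 points, TATCGATA to 0.00915 points and CAGGTAG to -0.0631 points, and CCAAT reversed to 0.0337 points with windows of 50 bp; the cause was not tested. No paired analysis was possible because there is only 1 group of samples; classes of region were compared within each replicate. The read depth of the lists is unknown, and 3 replicates cannot give a p under 0.25.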

Other observations

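By chromosome arm, coding exon regions were less dense on X than on the large autosome arms, and least dense on chromosome 4. The combined list held 344 per Mb of eligible coding bases on 3R, 333 on 3L, 327 on 2R, 300 on 2L and 254 on X. Chromosome 4, a small and largely heterochromatic chromosome, held 28.7 per Mb (7 regions), and its eligible coding bases had a GC content of 41.6%, against 52.7 to 55.4% on the other arms. The number on chromosome 4 was 7 in replicate 1, 24 in replicate 2 and 20 in replicate 3, so the order of the replicates there was not that of the class as a whole. On X the density was 359, 214 and 148 per Mb in replicates 1, 2 and 3, the lowest of the large arms in each. Eligible coding bases on X had the highest GC content. The embryos were of mixed sex, and the part of the number of X copies or of GC content in these densities was not tested.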
